A study of Homo sapiens with 21 samples.

Results

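MIR320A, MIR484 and MIR744 are human microRNA genes that have been grouped as reported to bypass standard Drosha processing. They were studied through the clusters whose gene name was exactly MIR320A, MIR484 or MIR744 in the AGO2 libraries of a PAR-CLIP series, 18 clusters of the 75500 AGO2 clusters and of the 855812 clusters in the whole series. MIR320A had 9 of them, MIR484 had 4 and MIR744 had 5. The genes were chosen by their names with earlier results of these data known, so their shares of reads are a description. Nothing is read from tests on these shares. AGO2 is the Argonaute protein that carries microRNAs to their target RNAs. In PAR-CLIP, cells are fed 4-thiouridine, ultraviolet light crosslinks it to the bound protein, and the crosslinked base then shows up as a T-to-C change in the reads.

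All AGO2 libraries came from Flp-In T-REx 293 cells. This established line of embryonic kidney origin held a stably integrated FLAG-HA-tagged transgene, here AGO2, which was pulled down with an anti-FLAG antibody. All these AGO2 cells were given 100 uM 4-thiouridine for 8 to 12 h and crosslinked at 0.3 J/cm2. The fluorescent protocol (fPAR-CLIP, RNA tagged with a fluorescent adapter) gave 1 library at 1.5 U/ul RNase I and 1 at 0.15 U/ul among those with files. The radiolabelled protocol, with 1 U/ul RNase T1, gave 2 libraries without a urea gel step and 2 with it, lettered A and B in each group. Between the fluorescent and radiolabelled libraries, label, RNase and the genome build of the coordinates change together and cannot be told apart. A fluorescent AGO2 sample with 1 U/ul RNase T1 is also listed, without a file here, and was not analysed here. The 11 libraries of other proteins (CPSF1, FUBP3, KHSRP and U2AF1) served for comparison. CPSF1 had RNase I at 0.5 U/ul. FUBP3 and KHSRP each had RNase I at 0.15, 0.5 and 1.5 U/ul, and RNase T1 at 0.5 U/ul. Cells of these proteins were given 4-thiouridine as the AGO2 cells were. U2AF1 had RNase A+T1 at 1.5 and 15 U/ml, and its cells were given 250 uM 4-thiouridine for 2 h. Protein and RNase conditions thus differ together in most comparisons with AGO2.

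Most microRNAs are cut from a long transcript by Drosha with DGCR8 in the nucleus, exported by exportin 5, cut again by Dicer and loaded into an Argonaute protein. The precursors of miR-320 and miR-484 are known instead to begin at the transcription start, to carry a cap and to leave the nucleus through exportin 1, without a Drosha cut. A microRNA then pairs with its targets mainly through its seed, bases 2 to 8 from its 5′ end.

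The mature sequences of 2 of the genes are shown because the clusters, the converted bases and the target motifs below are all placed on them. They are given 5′ to 3′ from RefSeq (GRCh38.p14), with the seed in capitals. MIR484 lies at chr16:15643294-15643372 on the plus strand, and its hairpin ends 10 nt before the RefSeq start of NDE1, a dynein regulator. MIR744 lies at chr17:12081899-12081996 on the plus strand, inside the span of MAP2K4, a stress kinase gene. The table used gives gene spans only, so exon or intron was not read from it. The 3 seeds are all different.
miR-484: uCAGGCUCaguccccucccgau
miR-744-5p: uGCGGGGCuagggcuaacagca
miR-744-3p: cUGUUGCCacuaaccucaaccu
The whole hairpins follow, with every base that lay in a cluster of any radiolabelled AGO2 library in capitals, so that the recovered arm can be seen against the rest.
MIR484: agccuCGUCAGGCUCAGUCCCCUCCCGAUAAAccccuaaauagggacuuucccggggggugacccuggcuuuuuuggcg
MIR744: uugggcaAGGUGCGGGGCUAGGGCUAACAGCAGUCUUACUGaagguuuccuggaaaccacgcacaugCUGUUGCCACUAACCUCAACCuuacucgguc

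Depth was taken as the reads inside clusters, since reads outside them were not in the files. That total was 335870 at 1.5 U/ul and 295889 at 0.15 U/ul in the fluorescent libraries. It was 929424 and 608223 in the radiolabelled libraries without the gel, against 183250 and 77572 with it. The smallest cluster in each AGO2 file held 5 reads, so a gene without a cluster may still have had reads. microRNA names held 43.2% and 31.5% of cluster reads in the fluorescent libraries, 24.5% and 28.7% without the gel, against 35.6% and 39.9% with it.

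Of the 3 genes, MIR320A was the one recovered in all 6 AGO2 libraries, and MIR484 and MIR744 were recovered in the 4 radiolabelled libraries only. The share of all cluster reads is used as the level. MIR320A held 8.03% of reads (95% Wilson interval 7.94 to 8.13, 26982 reads) in the fluorescent library at 1.5 U/ul and 4.56% (4.49 to 4.64, 13506 reads) at 0.15 U/ul. It held 1.496% and 1.502% in the radiolabelled libraries A and B without the gel, against 3.48% and 3.53% in A and B with it. The fluorescent libraries lay highest, those with the gel next and those without it lowest, with no overlap between these groups. MIR320A ranked first among microRNA names in both fluorescent libraries and in both gel libraries, and at rank 4 in both libraries without the gel. These intervals cover counting error only, because reads are not independent molecules.

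MIR484 held 1.74% and 2.04% of reads in the libraries without the gel (16212 and 12405 reads), against 1.77% and 2.16% with it (3249 and 1676 reads). The groups overlapped, and each group's A library lay below its B library. MIR744 held 0.424% and 0.418% without the gel (3940 and 2540 reads), against 0.765% and 0.938% with it (1402 and 728 reads). Both libraries without the gel lay below both with it. The order of MIR320A and MIR484 turned with the gel step: MIR484 was the higher in both libraries without the gel, where it ranked 2 and 1 among microRNA names, and MIR320A was the higher in both with it, where MIR484 ranked 4 and 4. MIR744 lay below both in every radiolabelled library.

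**Figure D1:**
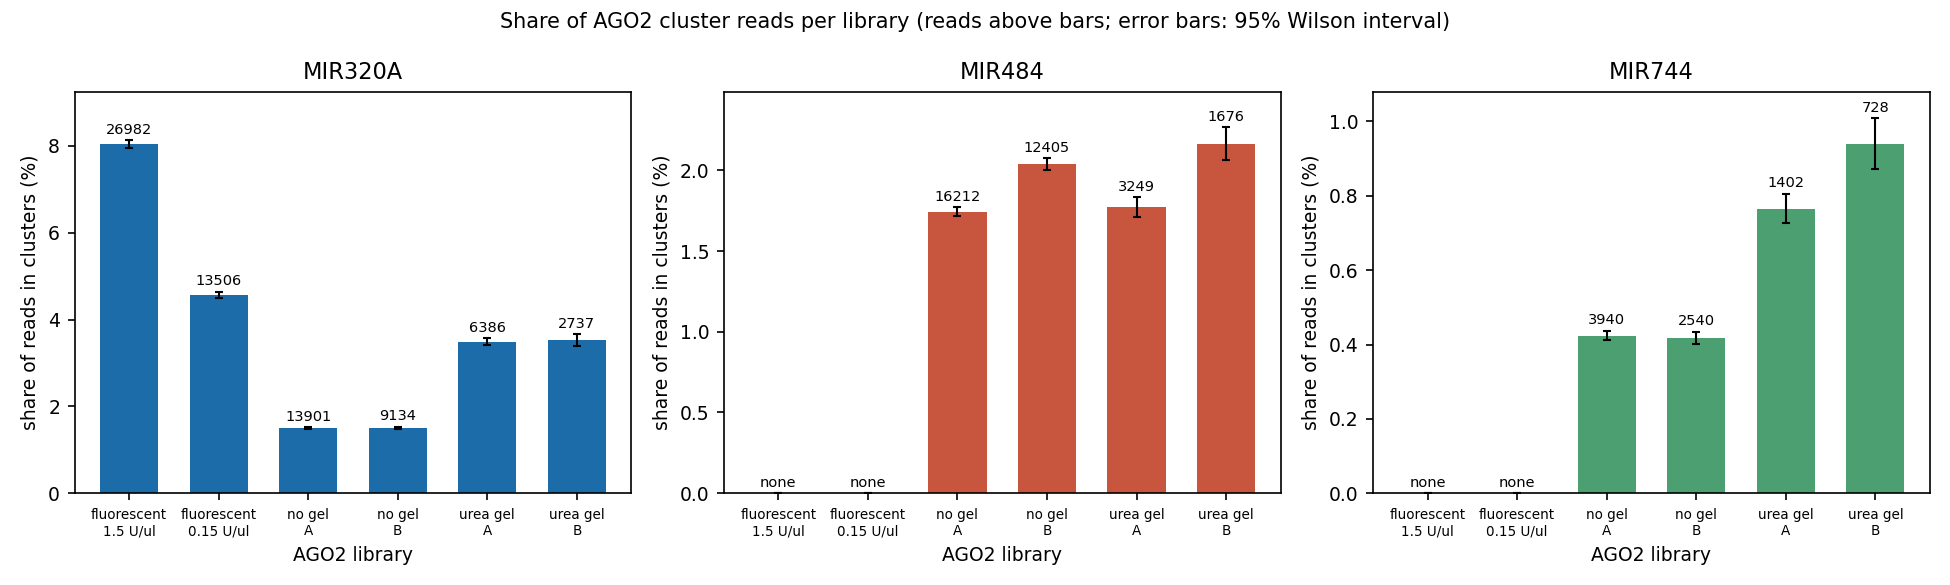
Share of cluster reads (%) held by MIR320A, MIR484 and MIR744 in each AGO2 library, each panel with its own axis from 0. The number above a bar is the reads, the error bar is the 95% Wilson interval, and "none" marks a library with no cluster; MIR320A has a bar in all 6 libraries, the other genes in the 4 radiolabelled ones.

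MIR484 and MIR744 had no cluster in either fluorescent library, by name or by any shared stretch of at least 16 nt with the mature sequences. In the radiolabelled libraries they were not rare: among 52 microRNA names with at least 100 reads in each of these libraries, MIR320A ranked 1, MIR484 ranked 4 and MIR744 ranked 14 by mean share over the 4 libraries, with and without the gel together. Missing from both fluorescent libraries was common in that group, with 18 of 52 names (34.6%), and by sequence 23 of 67 (34.3%). MIR10A, a microRNA made by the standard route, ranked between MIR320A and MIR484 with a mean share of 2.47% in the radiolabelled libraries and was also missing from both fluorescent ones. MIR93, another standard microRNA, held 6.70% and 4.46% in the fluorescent libraries at 1.5 and 0.15 U/ul, against 2.00% on average in the radiolabelled ones. MIR320A averaged 6.30% in the fluorescent and 2.50% in the radiolabelled libraries, a ratio of 2.52. Label, RNase and genome build change together in all these comparisons.

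Between the fluorescent libraries, the share of MIR320A at 1.5 U/ul was 1.76 times that at 0.15 U/ul. With 1 library a dose this has no replicate check. Among the 180 genes reaching 50 reads in each, 30 (16.7%) were at least 1.5 times higher at 1.5 U/ul, and the median ratio was 1.08. Among the 75 microRNA names in that set the median ratio was 1.27, 18 passed 1.5 and MIR320A ranked 3. As a share of microRNA reads alone MIR320A held 18.6% at 1.5 U/ul and 14.5% at 0.15 U/ul, a ratio of 1.28.

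The gel step was the only comparison with replicates, 2 libraries against 2, and asked whether leaving out the urea gel changed what was recovered. Reads per gene were fitted with edgeR's quasi-likelihood test over 1121 genes with at least 10 reads in all and a cluster in each library. Log2 ratios are gel-free libraries over gel libraries. MIR320A stood at -1.22 ± 0.13 (SE), MIR744 at -0.999 ± 0.17 and MIR484 at -0.04 ± 0.14. The 3 genes called by this test (0.268% of those tested, adjusted p under 0.05) were MIR320A, the exocyst gene EXOC8 (3.36 ± 0.41) and the microRNA host gene MIR17HG (-0.70 ± 0.08), these last named after their values were seen. Since the members were selected on results that included this contrast, nothing is read from that call. MIR320A was not called with DESeq2 (adjusted p = 0.0575). With gel library A or B left out its log2 ratio was -1.04 or -1.21. With gel-free library A or B left out it was -1.22 or -1.17. The single library left in a group is then assumed to vary like the other group.

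microRNA names as a whole lay below 0 in this comparison. Of 91 tested microRNA names 86 had a negative log2 ratio, with a median of -0.55, while the median over all genes was 0.01. MIR320A ranked 5 and MIR744 ranked 10 from the lowest of the 91, and MIR484 ranked 85. In shares of reads, MIR320A and MIR744 were lower in both libraries without the gel than in both with it, as were 249 of the 1121 genes (22.2%) and 62 of the 91 microRNA names. Cluster lists differed in depth too, with 39070 and 22573 clusters without the gel, against 6753 and 2305 with it. Over clusters above the same minimum share of reads in each library the log2 ratios were -0.78 for MIR320A, -0.55 for MIR744 and 0.40 for MIR484.

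**Figure D2:**
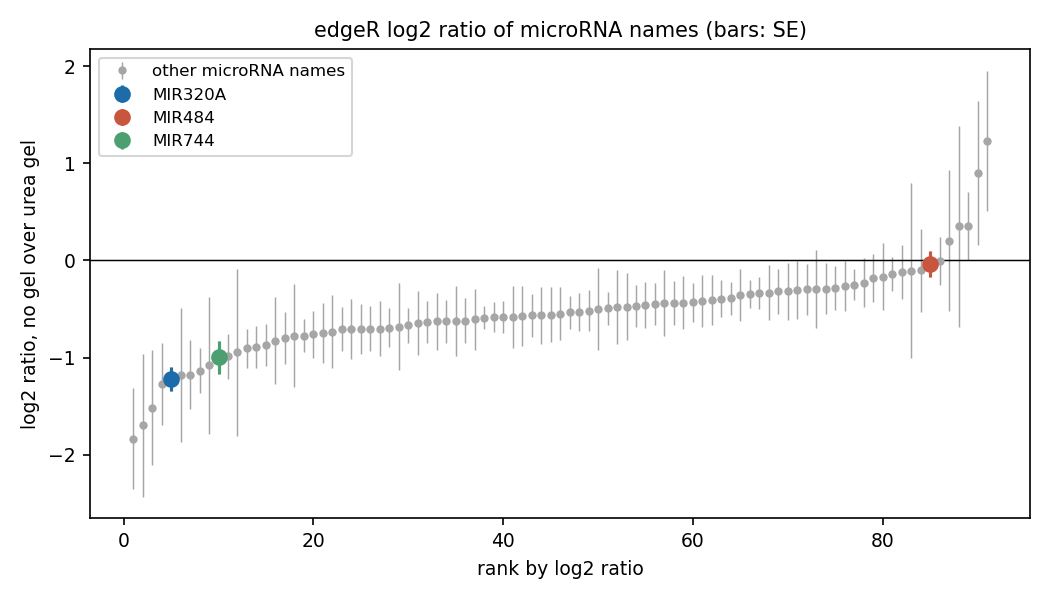
edgeR log2 ratio (without over with the urea gel) of the 91 microRNA names tested, ordered by rank, with SE bars. MIR320A (-1.22) and MIR744 (-0.999) sit at the low end and MIR484 (-0.04) at rank 85, near 0.

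The recovered stretch of MIR484 was the same in every radiolabelled library to within 1 base. Its cluster ran from hairpin position 6 to 31 in 3 of the 4 libraries and from 6 to 32 in B without the gel, so it was 26 or 27 nt long around the 22 nt of mature miR-484 (positions 8 to 29). No cluster covered the other arm. All 5 T in the stretch were converted in each library, and the mode of conversion lay at mature base 11, a U, in all 4. In library A without the gel another cluster, named CTB-107G13.1, shared at least 16 nt with miR-484 and brought the total for that sequence to 16231 reads.

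MIR744 was recovered mainly from its 5p arm, whose mature sequence fills hairpin positions 11 to 32. The 5p cluster was 31 and 26 nt long in A and B without the gel, against 24 and 23 nt in A and B with it. The lengths did not overlap and differed by 5.0 nt on average (exact permutation test, two-sided, p = 0.33, the smallest that 2 against 2 allows). How many other genes separate in length this way is not given here, so nothing is read from it. Leaving out A without the gel gave 2.5 nt and leaving out B without the gel gave 7.5 nt. The extra bases lay after the mature end in A without the gel, where the cluster ran to position 41, and before it in B without the gel, where it began at position 8. The number of converted T was 3 in each of these clusters, and the mode lay at mature base 8, next to a U. The 3p arm had a cluster in B with the gel only, with 28 reads over positions 68 to 88.

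The cluster extent of MIR320A differed between the protocols. RefSeq places it at chr8:22244966-22245037 (GRCh38, minus strand, 72 nt), 96 nt from the start of POLR3D, an RNA polymerase III subunit gene. The 1.5 U/ul library held 1 cluster of 58 nt over hairpin positions 10 to 67, which spans the 5p side, the loop and the 3p side. Extent does not say how many reads covered each part. This stretch holds 13 T, but its 26982 reads gave only 23059 conversion and 58001 non-conversion events. Most reads thus cannot have covered the whole stretch, and reads reaching the loop or 5p side were not counted. At 0.15 U/ul the cluster was 39 nt, from position 29 to 67. In the radiolabelled libraries the main cluster was 27 and 29 nt without the gel, against 26 and 27 nt with it, all on the 3p side, ending at position 66 or 67. The mature stretch is taken here as the 20 bases that miR-320a shares with miR-320b, positions 42 to 61, and these clusters began 1 to 4 nt before it.

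The radiolabelled files also listed a small MIR320A cluster on the 5p side, starting at position 10 as the long fluorescent one did. It held 16 reads in A without the gel, against 15 and 5 reads in A and B with it. B without the gel had none. In those small clusters the endG fraction, by its name the share of reads that end in G, was 61.5%, 80.0% and 100%, against 0.456% to 1.47% in the main clusters of the radiolabelled libraries. RNase T1 cuts after G. The mode of conversion in the main clusters lay at mature base 13 in all 4 radiolabelled libraries and at base 12 at 0.15 U/ul, beside or on the adjacent U at bases 11 and 12. At 1.5 U/ul it lay 7 nt before the mature start, on the loop side.

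**Figure D3:**
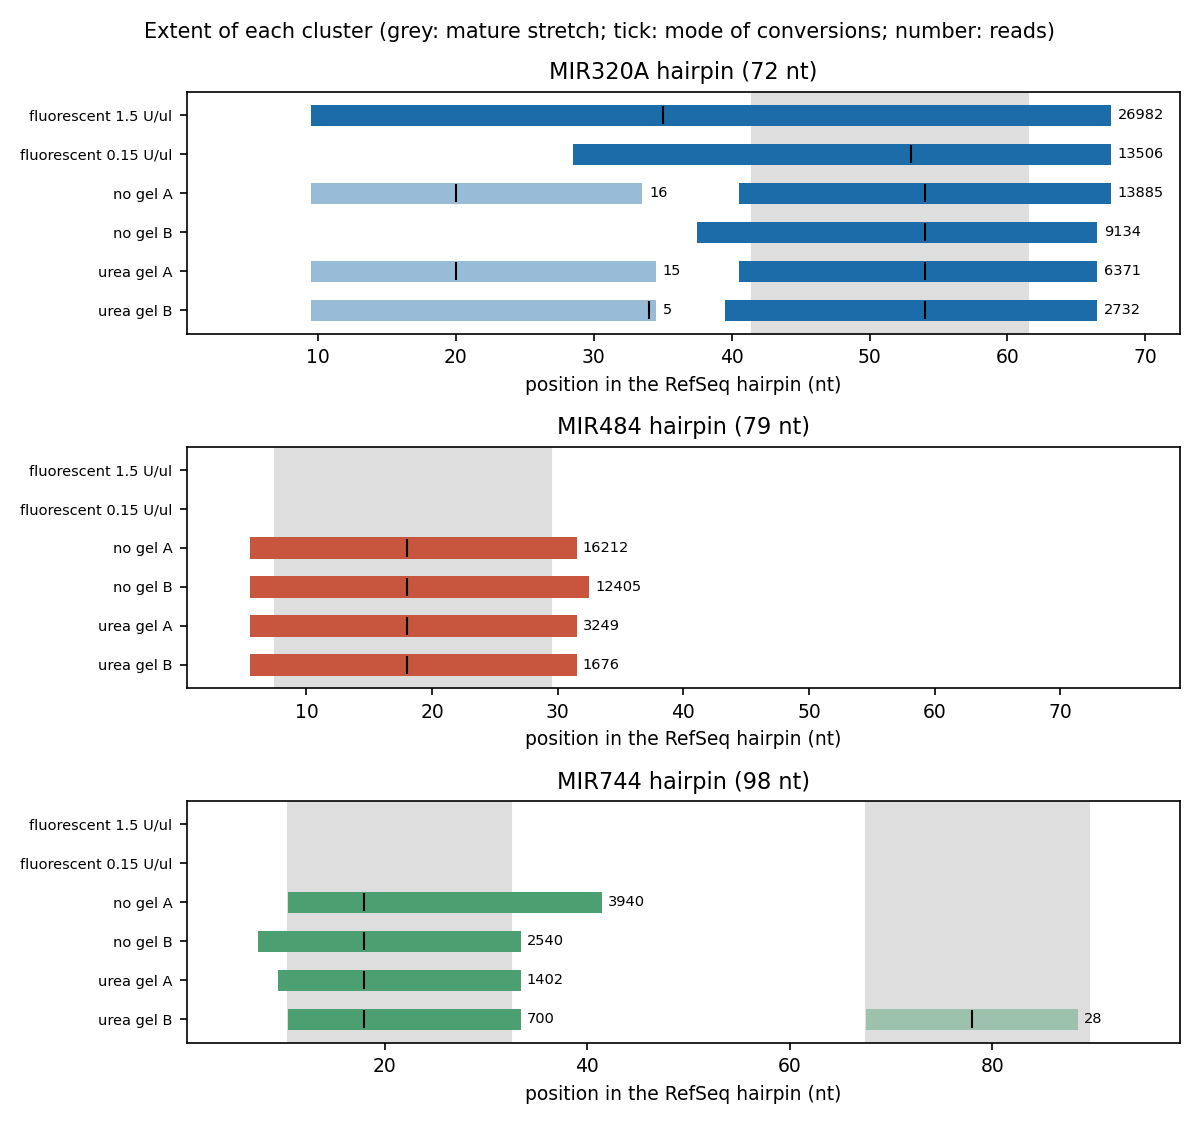
Position of each cluster in its RefSeq hairpin (nt) for every AGO2 library, with the mature stretch in grey, a tick at the mode of conversions (for MIR320A grey is the stretch shared with miR-320b), and the reads beside each bar (paler bars are minor clusters). The main MIR320A cluster spans 58 nt at 1.5 U/ul and 26 to 29 nt in the radiolabelled libraries, while MIR484 keeps the same start throughout. A bar does not show how many reads covered each part.

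Reads of MIR320A carried a T-to-C change far more often than those of MIR484 and MIR744. The percentage of scored reads with such a change in MIR320A was 85.5 at 1.5 U/ul and 83.6 at 0.15 U/ul, 85.1 and 84.7 without the gel, against 89.8 and 89.1 with it. It ranked between 1 and 6 among microRNA names with at least 100 reads in each library, of which there were 57 to 109. The values stayed within about the same narrow range under both labels, with the gel libraries highest. In MIR484 it was 60.8 and 59.3 without the gel, against 62.0 and 56.2 with it. In MIR744 it was 58.5 and 55.5 without the gel, against 62.9 and 57.4 with it. Both lay below the median of microRNA names, which was 66.2 to 67.9 in the radiolabelled libraries.

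MIR320A exceeded MIR484 by 27.6 ± 3.8 points and MIR744 by 28.6 ± 2.4 points (SD over libraries), in 4 of 4 radiolabelled libraries each. The exact two-sided sign-flip permutation test gave p = 0.125, the smallest that 4 libraries allow (0.1875 after adjustment over 3 pairs). MIR484 and MIR744 differed by 0.99 ± 2.4 points, with MIR484 higher in 2 of 4 (exact permutation p = 0.5). Of the 22 bases of miR-484 5 are U, and of the 22 bases of miR-744-5p 3 are U. The main MIR320A clusters of the radiolabelled libraries held 3 T each, and miR-320a has U at bases 7, 11 and 12. The main MIR320A clusters thus held as many T as miR-744-5p has U, though the MIR744 cluster of A without the gel held 7 T. Converted T numbered 2 in the main MIR320A cluster of each radiolabelled library, against 3 in the MIR744 5p cluster. Of all conversion and non-conversion events at T in MIR320A reads, 28.2% and 28.1% were conversions without the gel, against 29.8% and 29.5% with it. That rate was 13.3% and 13.1%, against 13.4% and 12.3%, in MIR484, and 19.6% and 18.8%, against 21.1% and 18.7%, in MIR744. In A without the gel the events per read were 0.847, 0.605 and 0.581 in MIR320A, MIR484 and MIR744. These lay close to the fractions of reads with a change, so the rate per T falls as T per read rises. As miR-484 has the most U, nothing is read from the distance of its rate to the other genes.

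Leaving out the gel went with a mean T-to-C percentage of 84.9 ± 0.29 in MIR320A, against 89.4 ± 0.48 with it (SD, n = 2 each). This difference of -4.48 points had no overlap between groups, at the smallest exact permutation p that 2 against 2 allows (0.33). How many other genes separate in this way is not given here, so nothing is read from the lack of overlap. Averaged over clusters without weights, so that the small 5p clusters count fully, it was -11.4 points, and for MIR744 -0.52 points in place of -3.14. MIR484 (60.0 ± 1.0 against 59.1 ± 4.2) and MIR744 (57.0 ± 2.1 against 60.1 ± 3.9) overlapped between the groups.

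**Figure D4:**
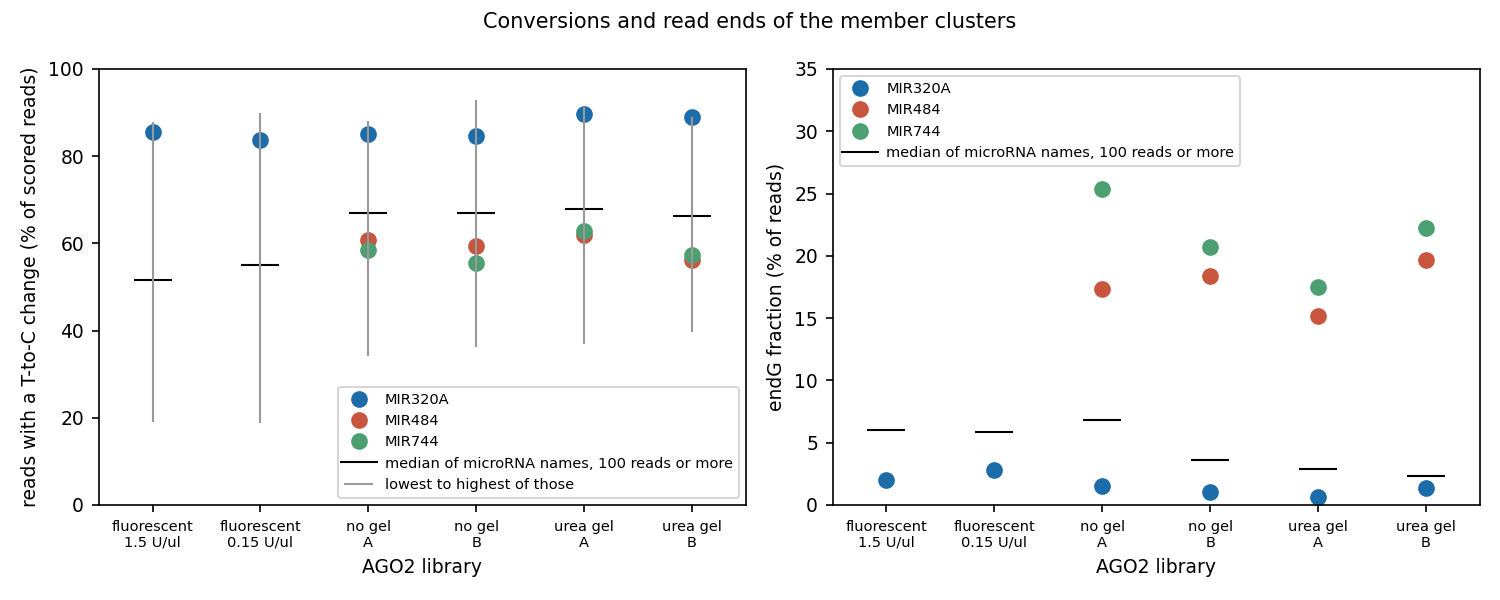
Left, the percentage of scored reads with a T-to-C change, and right, the endG fraction in percent, for MIR320A, MIR484 and MIR744 in each AGO2 library. Black dashes are medians over microRNA names with at least 100 reads, and grey lines (left) run from the lowest to the highest of these. MIR320A lies above the median on the left and below it on the right in every library, the other genes the opposite way.

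The ends of the reads separated the genes as well. The endG fraction of MIR320A was 2.01% at 1.5 U/ul and 2.79% at 0.15 U/ul, 1.54% and 1.04% without the gel, against 0.643% and 1.40% with it. MIR484 had 17.4% and 18.3% without the gel, against 15.2% and 19.7% with it. MIR744 had 25.3% and 20.7% without the gel, against 17.5% and 22.3% with it. The median of microRNA names was 2.33% to 6.83% in these radiolabelled libraries, below both MIR484 and MIR744 and above MIR320A in each. By rank from the highest the genes lay nearer the middle. Without the gel MIR320A ranked 70 of 109 and 64 of 101, MIR484 42 and 39, and MIR744 37 and 35. With the gel MIR320A ranked 51 of 79 and 32 of 57, MIR484 30 and 21, and MIR744 28 and 19. MIR320A differed from MIR484 by -16.5 ± 1.6 points and from MIR744 by -20.3 ± 2.9 points, lower in 4 of 4 libraries each (exact permutation p = 0.125, the smallest possible).

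The number of reads per distinct sequence followed depth in the radiolabelled libraries of all 3 genes. It was 6.01 and 3.73 in MIR320A without the gel, against 3.12 and 1.98 with it. It was 6.0 and 3.66, against 2.45 and 1.62, in MIR484, and 4.99 and 2.92, against 2.33 and 1.59, in MIR744. In each gene A lay above B in both groups, as the total reads did. In the fluorescent libraries MIR320A had 2.49 reads per distinct sequence at 1.5 U/ul and 2.18 at 0.15 U/ul.

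The relatives of MIR320A were nearly absent. Of 7 other MIR320 genes, which share most of the mature sequence, MIR320B2 alone had clusters, with 12 and 6 reads in the fluorescent libraries at 1.5 and 0.15 U/ul, 29 and 15 without the gel, against 5 and 0 with it. miR-320a and miR-320b share a stretch of 20 bases, so reads that match both cannot be placed on a single gene. The host MAP2K4 had a cluster of 13 reads in the fluorescent library at 0.15 U/ul, and 75 and 64 reads without the gel, against 8 and 0 with it. As shares of cluster reads the radiolabelled values were 0.00807% and 0.0105%, against 0.00437% and 0. NDE1 had 11 reads in A without the gel and none elsewhere. POLR3D had 30 and 13 without the gel and none with it or in the fluorescent libraries. These are raw reads, and the libraries with the gel were shallower.

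Other microRNAs of unusual origin were far lower. Of 12 such genes, among them MIR451A, which is cut by AGO2 itself, and mirtrons, which are released by splicing, 7 had a cluster in at least 1 AGO2 library and 0 in all 6. Of the 6 standard microRNAs named for scale, 5 had a cluster in at least 1 library and 1 in all 6. The share over all microRNA names is not given here, so nothing is read from these counts. The mirtron MIR1226 had the most reads in a library, 269 at 0.15 U/ul, with 78 and 41 without the gel, against 65 and 0 with it. As shares of cluster reads these were 0.0909% at 0.15 U/ul, 0.00839% and 0.00674% without the gel, against 0.0355% and 0 with it. MIR451A had 18 and 21 reads in the fluorescent libraries at 1.5 and 0.15 U/ul, and no cluster in the radiolabelled ones.

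The mRNAs of the microRNA machinery appeared as bound RNAs in 13 of 14 cases, 2 of them in all 6 libraries: AGO2 itself and TNRC6A, an Argonaute partner in silencing. All 13 had a cluster in A without the gel, the deepest library, where 9430 gene names had one. The share of all genes with a cluster is not given here, so nothing is read from this count. The AGO2 clusters held 633 and 994 reads at 1.5 and 0.15 U/ul, 4819 and 4685 without the gel, against 874 and 116 with it. Reads from the AGO2 transgene and the endogenous gene cannot be told apart here. DROSHA had 58 and 39 reads in the fluorescent libraries, 42 in A without the gel and none in the other radiolabelled libraries. XPO1, the exportin used by capped precursors, had 155 and 83 reads without the gel, against 7 and 7 with it. As shares of cluster reads these were 0.0167% and 0.0136%, against 0.00382% and 0.00902%. Of the 6 machinery genes tested for the gel step, 0 were called by edgeR (3 at an unadjusted p under 0.05, as were 149 of all 1121 genes), with a median log2 ratio of 1.0 against 0.01 over all genes.

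Over the 6 AGO2 libraries, the 3 genes with a pattern of log2 shares most like that of MIR320A, among 100 genes with at least 20 reads in each, were MIR151A (Pearson r = 0.965), RP11-25K21.6 (0.956) and MIRLET7A3 (0.937). MIR151A held 0.0572% and 0.0456% in the fluorescent libraries at 1.5 and 0.15 U/ul, 0.0223% and 0.0227% without the gel, against 0.0382% and 0.0296% with it. The points share label, RNase and genome build, so these are descriptions. The same measure could not be applied to MIR484 and MIR744, which have no fluorescent cluster.

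Clusters outside microRNA genes were searched for the 7 bases complementary to each seed, on the cluster's own strand: GAGCCTG for miR-484, GCCCCGC for miR-744-5p, and the site of miR-320a by name. A match to miR-484 stood in 0.177% of clusters at the median of the 6 AGO2 libraries (range 0 to 0.679%), against 0.104% at the median of the 11 libraries of other proteins (0 to 0.33%). For miR-744-5p the medians were 0.0591% (0.0306% to 0.407%) and 0.0223% (0 to 0.558%). For miR-320a they were 0.262% (0.181% to 0.366%) and 0.272% (0.0137% to 0.353%). Median cluster length was 22 or 23 nt in the radiolabelled AGO2 libraries and 28 nt in the fluorescent ones. It was 22 to 31 nt in libraries of other proteins. Matching clusters per 10 kb of cluster sequence had medians of 1.02 in AGO2 against 0.911 in other proteins for miR-320a. They were 0.705 against 0.331 for miR-484 and 0.236 against 0.0705 for miR-744-5p. The order for miR-320a thus turned with the measure. All 3 ranges overlapped between AGO2 and the other proteins on both measures, and a match is not a shown target site.

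The clusters with a match to miR-484 held 2.16% and 4.11% of the reads outside microRNA genes in the fluorescent libraries at 1.5 and 0.15 U/ul, and at most 0.167% in the radiolabelled ones. In the fluorescent libraries nearly all of these reads lay in clusters with no gene name, 3883 of 4021 and 8071 of 8157, which were left out of the genes that follow. For miR-320a and miR-744-5p the share was at most 0.331% in any AGO2 library. Among named genes, the one with the most reads in clusters with a miR-320a match was SESN2, a stress-response gene, with 110 and 121 reads in its 3' UTR in A and B without the gel and none with it, followed by SOGA1 and ARID5B. For miR-484 it was HN1, with a coding cluster of 123 and 142 reads without the gel, against 35 and 0 with it, followed by ERC1 and HOXA5, a homeobox factor. For miR-744-5p the named genes were B4GALNT4, IL6ST, a cytokine receptor subunit, and IRF2BP2, each with at most 38 reads in a library. All counts for these named genes are raw reads, and the libraries with the gel were shallower.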

How the data were processed

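The deposited files list clusters of a single library with raw read counts, counts of distinct sequences, and a T-to-C fraction and an endG fraction per cluster, per the file headers. For U2AF1 the crosslinked reads were deposited by the authors as an estimated count, per the file headers, which was not used for a result. Per the submitters' processing notes, bcl2fastq 2.20.0, cutadapt 1.15 and hg38 were used; the aligner and cluster caller are not given in the sources used here. Clusters of the 4 radiolabelled AGO2 files had the same base as the fluorescent ones at 22.0% to 33.6% of shared positions, and at 100% among themselves, so their coordinates are of another build, are not printed, and were placed by sequence on RefSeq hairpins. MIR320A positions came from its RefSeq gene span.

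Reads were summed by exact gene name over all reads in clusters. Gel libraries were compared with edgeR 4.0.16 (TMM, Benjamini-Hochberg, checked on simulated data), with DESeq2 1.42.0 as the other tool, under R 4.3.3. SE is the log2 ratio over the root of F. Single values had exact permutation tests. No label says that replicates are separate cultures, so p-values reflect library-to-library spread, possibly only technical; replicates differed beyond sampling noise (chi-square per degree of freedom 15.3 without and 5.14 with the gel). Letters A and B were not taken as pairs. Python 3.11.15, scipy 1.17.1 and pandas 2.3.3 were used. The members and lists were chosen with earlier results of these data known. Named were the 3 genes, their hosts and neighbour, MIR320 relatives, 12 other unusual microRNAs, standard microRNAs, machinery genes, the 3 genes most like MIR320A (the measure could not be applied to the others), and 3 genes per seed with the most reads in matching clusters. Alternatives were the normalization, filters, distinct sequences, merged names, largest cluster, denominators, the replicate block and leaving out each library. Of 21 samples 17 had files; the other 4 were not analysed here.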

Additional observations from a re-analysis of the deposited data

Results flagged for a closer look

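A MIR320A cluster was also listed outside AGO2, in the U2AF1 library at 15 U/ml RNase A+T1. It held 1850 of 75383 reads in clusters, or 2.45% (95% Wilson interval 2.35 to 2.57), and ranked 2 of 28 microRNA names there. It drew attention because U2AF1 is a splicing factor and the other 10 libraries of proteins other than AGO2 had no MIR320A, MIR484 or MIR744 cluster. The U2AF1 library at 1.5 U/ml had 78 reads in a cluster of the relative MIR320E. The U2AF1 cells had 250 uM 4-thiouridine for 2 h and another RNase mix, so against the AGO2 libraries protein, labelling and RNase cannot be told apart. Between the U2AF1 libraries the RNase dose differed, with 1 library a dose. microRNA names as a whole held 8.24% of cluster reads at 15 U/ml and 1.32% at 1.5 U/ml. In the CPSF1, FUBP3 and KHSRP libraries they held at most 0.919%.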

How the results depend on the processing

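The direction of the gel comparison was the same in all alternatives for MIR320A and MIR744, while MIR484 changed sign, between -0.38 (distinct sequences) and 0.40 (matched minimum). MIR320A was no longer called with DESeq2 (log2 ratio -1.22, adjusted p = 0.0575), without the demand for a cluster in each library (-1.04), with clusters of at least 10 reads (-1.01) and with clusters above the same minimum share in each library (-0.78); the cause was not tested. MIR744 passed with distinct sequences (-1.10) and with no filter (-0.82). As the members were selected on results that included this contrast, nothing is read from these calls. MIR484 was at 0.14 without the demand for a cluster in each and with no filter, 0.17 with at least 10 reads and 0.40 with the matched minimum. The number of genes called was 3 in the main fit, 2 with DESeq2, 5 with distinct sequences, 53 with no filter, and 0 without the demand, with 10 reads and with the matched minimum (1145, 73 and 40 genes at an unadjusted p under 0.05). Leaving out a library gave 0 to 14 calls, and log2 ratios of -1.22 to -1.04 for MIR320A, -1.01 to -0.85 for MIR744 and -0.10 to 0.11 for MIR484 (0.07 without A lacking the gel, 0.00 and 0.11 without A and B of the gel). MIR320A was not called without either gel library, and MIR744 was called without either library lacking the gel. With the letters as a replicate block 3 genes were called and MIR320A was at -1.22; the deviations of same-lettered libraries correlated at -0.006, so the letters were not used as pairs.

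As a share of microRNA reads MIR320A held 18.6% and 14.5% in the fluorescent libraries at 1.5 and 0.15 U/ul, 5.68% without and 9.31% with the gel, MIR484 7.12% and 5.19%, and MIR744 1.59% and 2.25%. In distinct sequences MIR320A held 4.73%, 2.80%, 1.28% and 3.08%, MIR484 1.64% without and 2.15% with the gel, and MIR744 0.447% and 0.967%. In clusters of at least 10 reads MIR320A held 8.23%, 4.69%, 1.79% and 4.06%, MIR484 2.26% and 2.27%, and MIR744 0.502% and 0.984%. The dose ratio of MIR320A was 1.28 over microRNA reads. Its ratio between labels was 2.21 over microRNA reads, 1.73 in distinct sequences and 2.21 with at least 10 reads.

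Counting the span of all clusters turned the length difference (without minus with the gel) to -13.5 nt for MIR320A and -22.5 nt for MIR744, through the small clusters on the other arm. Leaving out a library gave 2.5 to 7.5 nt for MIR744. The T-to-C difference of MIR484 ranged from -1.99 (without B of the gel) to 3.89 points when a library was left out. The unweighted mean over clusters gave -11.4 points for MIR320A and -0.52 for MIR744. Leaving out a library gave -4.82 to -4.14 points for MIR320A and -5.92 to -0.36 for MIR744. The median seed-match share in AGO2 minus other proteins turned to 0.133 points for miR-320a and -0.0119 for miR-744-5p in 3' UTRs, and to -2.5e-05 for miR-484 with 6 bases. Per length of cluster sequence, the main miR-320a median also turned to the higher in AGO2.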
